A study of Mus musculus with 69 samples.

Results

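Chil1, Chil3, Chil4, Retnla and Retnlg are the secreted chitinase-like and resistin-like genes of the mouse that were followed here, 5 of the 24537 genes listed in the expression tables. They are defined by gene symbol, with no threshold on a measured value, although the set was taken up with earlier results of these data known, and each was read in every table of the series that holds mouse RNA-seq. The chitinase-like proteins are built on the fold of the chitinases that cut chitin but do not cleave it themselves, and the resistin-like proteins are small secreted molecules named after resistin, an adipocyte hormone of the mouse. Chil3 (also called Ym1) and Retnla (also called Fizz1 or RELM alpha) are textbook markers of the alternatively activated macrophage, the state that the type 2 cytokine interleukin-4 (IL-4) induces through its receptor and the transcription factor STAT6. Chil4 (Ym2) is the close neighbour of Chil3 and is best known from lung and stomach, Chil1 is the mouse counterpart of a human glycoprotein secreted in inflammation and tissue repair, and Retnlg (RELM gamma) is best known from bone marrow cells and neutrophils.

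All 69 samples were bone marrow-derived macrophages (BMDMs), grown from the marrow of female mice 8 to 12 weeks old with macrophage colony-stimulating factor and left untreated (basal) or given mouse IL-4 at 20 ng/mL. The first table holds 29 libraries of inbred strains, namely C57BL/6J (C57 for short), the wild-derived PWK/PhJ (PWK) and SPRET/EiJ (SPRET), NOD/ShiLtJ (NOD) and BALB/cJ (BALB), with 3 basal libraries and 3 libraries after 24 hours of IL-4 each, except that PWK has 2 basal libraries. The second follows C57 and SPRET cells through 0, 1, 6 and 24 hours of IL-4, and the third does so for Egr2 fl/fl BMDMs (Egr2WT) and LyzM-Cre Egr2 fl/fl BMDMs (Egr2MKO), with 2 libraries in each group of both. Both of these genotypes carry the floxed Egr2 allele, only Egr2MKO carries Cre, and the lysozyme M promoter that drives this Cre is active in myeloid cells, so cells of other kinds keep the gene. The remaining 8 libraries come from BMDMs of F1 crosses of C57 with NOD and of C57 with SPRET, basal or after 24 hours of IL-4, 2 libraries a group, with a value for each parental allele. Nothing in the labels says that the replicates of a group came from separate animals, so p-values measure the spread between these libraries only.

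Expression is given in TPM as the authors deposited it, a measure of transcript abundance that scales each gene by its exon length and each library by its depth. The libraries held 7.02 M to 22.5 M tags (mapped reads, with M for 1000000) in the 5 strains and 5.70 M to 24.0 M in the C57 and SPRET time course according to the table headers. For the Egr2 table the headers did not match the steps between low values, from which 1.78 M to 15.9 M tags were computed, the lowest in Egr2MKO after 6 hours, replicate 2. Markers of macrophages were expressed in every library (6 or 7 of the 7 listed at 1 TPM or more). In the 5-strain libraries they summed to 9325 to 9741 TPM in PWK, against 16578.5 to 30187.6 TPM in the other strains. Ly6g, which defines mature neutrophils, never exceeded 0.276 TPM. A list of 13 neutrophil granule and alarmin genes summed to 1399 to 1416 TPM in basal PWK, 347 to 406 in basal SPRET, 255 to 283 in basal C57, 174 to 195 in basal NOD and 123 to 128 in basal BALB. In bulk RNA, fewer cells that express a gene and less RNA per cell cannot be told apart.

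Chil1 lies on chr1:134182404-134190031 (plus strand, mm10), Chil3 and Chil4 lie next to each other on chr3:106147554-106167564 and chr3:106201491-106219479 (both minus), and Retnla and Retnlg on chr16:48842552-48844461 and chr16:48872608-48874498 (both plus). The upstream sequences of both neighbouring pairs are alike, those of Chil3 and Chil4 more than those of Retnla and Retnlg. The windows shown here are the 90 bases around the first match to a STAT-type recognition sequence. They are RefSeq promoter sequences (GRCm38.p6, the assembly of mm10), printed 5′ to 3′ on the strand of the gene. Capitals mark TTCNNNGAA, a STAT form with a spacer of 3 bases, in the Chil genes. In the Retn genes they mark TTCNNNNGAA, the form with a spacer of 4 that was searched as the STAT6 sequence. This STAT6 form matched neither Chil3 nor Chil4 in the bases searched. TTGCNNAA, a C/EBP-type sequence, is marked where it stands in the window of Retnla.
Chil3, chr3:106167677-106167766: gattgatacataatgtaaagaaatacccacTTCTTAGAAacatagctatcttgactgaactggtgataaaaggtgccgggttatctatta
Chil4, chr3:106219620-106219709: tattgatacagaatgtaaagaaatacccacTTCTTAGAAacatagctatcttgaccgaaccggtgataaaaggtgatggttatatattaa
Retnla, chr16:48842434-48842523: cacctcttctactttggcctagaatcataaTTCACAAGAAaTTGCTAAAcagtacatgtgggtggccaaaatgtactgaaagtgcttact
Retnlg, chr16:48872506-48872595: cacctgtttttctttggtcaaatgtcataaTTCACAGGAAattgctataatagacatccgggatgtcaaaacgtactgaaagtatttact

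Over the 250 bases before the RefSeq start site and on both strands, TTCNNNGAA was found in 7.02% of 32851 RefSeq mouse promoters, TTCNNNNGAA in 5.85% and TTGCNNAA in 9.56%, so these letters alone are not rare. The RefSeq start is also the start in the expression tables for Chil3, Chil4 and Retnlg, but lies 57 bases inside the listed gene for Retnla and 248 bases before it for Chil1. Counted from the start in the expression tables, Chil3 holds TTCNNNGAA at -172 to -164 and Chil4 the identical 9 bases at -200 to -192. Retnla holds TTCNNNNGAA at -88 to -79 and TTGCNNAA at -77 to -70, and Retnlg holds TTCNNNNGAA at -72 to -63. TTGCNNAA also stood on the opposite strand of Chil4 at -131 to -124 and of Retnlg at -246 to -239, outside the windows shown. The EGR sequence GCGTGGG, present in 4.30% of promoters, matched none of the 5 genes in this stretch, and Chil1 held none of the 5 sequences searched. The fifth, GAGGAAGT, a PU.1-type sequence present in 2.44% of promoters, matched Retnla alone, at -141 to -134 on the opposite strand. These matches are descriptions of letters, not of bound sites.

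Over all their aligned bases the upstream sequences of Chil3 and Chil4 were 90.95% identical and their transcripts 94.4%. Of all stretches of 50 bases in one of these transcripts, 18.5% were present unchanged in the other. The reads were longer than this, and the share at read length was not computed. How reads that fit both genes were assigned was not examined, so values of Chil4 beside a high Chil3 are uncertain. The upstream sequences of Retnla and Retnlg were 76.7% identical over 176 aligned bases. Their transcripts were 84.5% identical and shared no such stretch.

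In the 5 strains, Chil3 and Chil1 were each expressed over a wide range, and were high in different strains. Chil3 and Chil4 rose with IL-4 in C57, Chil3 rose in BALB and, from a low level, in PWK, and Chil1 fell in NOD. No member was called after IL-4 in SPRET. The questions here were how far the response of each gene to 24 hours of IL-4, and its level, depended on the strain. Differences were tested with limma on log2(TPM + 1), and a gene was called when it changed more than 2-fold with a p under 0.05 after Benjamini-Hochberg adjustment over the 11907 genes tested. On this scale the fold change of a gene near 1 TPM is understated. Of the 5 members, 4 reached 1 TPM in at least 2 libraries and were tested. Retnlg was at 0 in all 61 libraries of the 3 tables, where a single tag would have been worth 0.0915 to 0.282 TPM in the 5 strains and up to 1.41 TPM in the shallowest Egr2MKO library, so lower levels were not detectable.

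**Figure D1:**
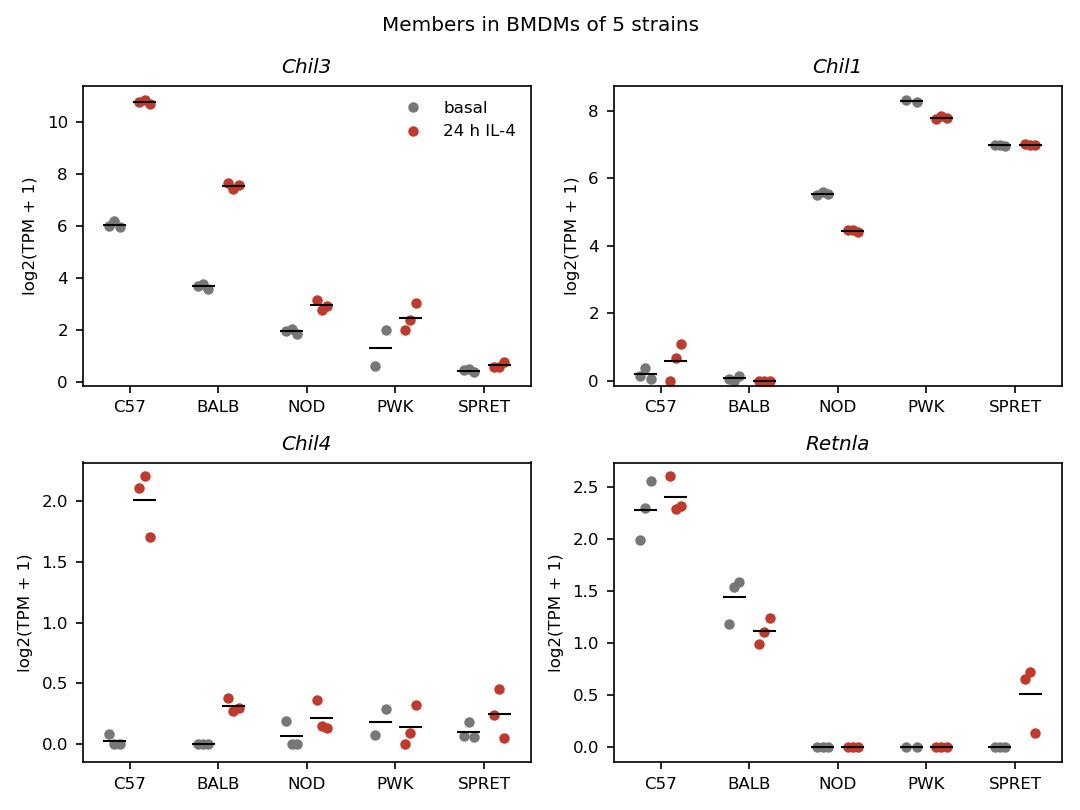
Levels of Chil3, Chil1, Chil4 and Retnla in BMDMs of 5 strains, as log2(TPM + 1), in basal libraries (grey) and after 24 hours of IL-4 (red), with a point for each library and a dash for each group mean. Chil3 spans from a mean of 1749 TPM in C57 after IL-4 down to 0.355 TPM in basal SPRET, while Chil1 is highest in PWK and SPRET and near 0 in C57 and BALB.

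Chil3 stood at 63.6, 71.2 and 61.3 TPM in the basal C57 libraries (65.4 ± 5.14, mean ± SD, n = 3) and at 1726, 1855 and 1667 TPM after IL-4 (1749 ± 96.4, n = 3). This was a rise of 4.72 on the log2 scale (standard error 0.22, adjusted p = 4.05e-15 from limma). Every IL-4 library lay far above every basal one.

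BALB libraries held Chil3 at 11.8, 12.5 and 11.03 TPM under basal conditions and at 199, 172 and 189 TPM after IL-4, a rise of 3.88 (adjusted p = 5.10e-13, limma). BALB thus ran below C57 in every library of the same condition, by 2.38 in basal cells and by 3.22 after IL-4 on the log2 scale, and both of these differences were called. The difference between the rises themselves was -0.85 (standard error 0.31, adjusted p = 0.0675), which did not pass.

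In NOD, Chil3 was 2.92, 3.10 and 2.64 TPM without IL-4 and 7.91, 5.76 and 6.57 TPM with it, so that the groups did not overlap. The change of 0.99 had an adjusted p of 0.00128 by limma but stayed just under the 2-fold limit. It passed that limit and was called when any of 3 single libraries was left out, at 1.08 without IL-4 replicate 2, 1.00 without IL-4 replicate 3 and 1.03 without basal replicate 2.

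The 2 basal PWK libraries lay far apart, at 0.552 and 3.01 TPM (10 and 56 tags), and the IL-4 libraries had 2.96, 4.27 and 7.24 TPM, the lowest of them below the higher basal one. Chil3 was called higher after IL-4 in PWK (1.16, standard error 0.25, adjusted p = 0.000968 from limma). The call rested on single libraries, since the change was under 2-fold without either of 2 of them. It was 0.47 without basal replicate 1, which leaves a single basal library, and 0.87 (adjusted p = 0.00859) without IL-4 replicate 3.

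SPRET libraries held 0.363, 0.402 and 0.301 TPM of Chil3 in the basal state and 0.493, 0.505 and 0.712 TPM after IL-4, between 7 and 19 tags each. All 3 IL-4 values were above the basal ones, but the change of 0.21 was not called (adjusted p = 0.479, limma). After IL-4 the distance of SPRET from C57 was -10.12 on the log2 scale (standard error 0.22, adjusted p = 8.11e-23).

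Chil1 had another order. It was 317 and 301 TPM in basal PWK, 124, 125 and 124 in basal SPRET and 44.3, 46.8 and 45.6 in basal NOD. In C57 and BALB no basal library exceeded 0.298 TPM, which is 3 tags. PWK was above SPRET (SPRET minus PWK -1.30, adjusted p = 6.85e-08, limma) and SPRET above NOD (1.43, adjusted p = 1.17e-09), while BALB and C57 did not differ beyond their spread (-0.12, adjusted p = 0.528). The ratio of the PWK mean to the C57 mean was 2096-fold in basal cells, with a denominator of 1 to 3 tags a library.

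With IL-4, Chil1 in NOD went to 21.0, 21.3 and 20.2 TPM, less than the lowest basal library by more than 2-fold (-1.09, standard error 0.14, adjusted p = 2.06e-06 from limma). PWK had 216, 227 and 217 TPM after IL-4, below both basal libraries, but the change of -0.49 was within 2-fold (adjusted p = 0.0253). SPRET stayed at 127, 125 and 126 TPM (0.02, adjusted p = 0.946). BALB held 0 tags of Chil1 in all 3 IL-4 libraries, against which the PWK mean was at least 1995-fold, the SPRET mean at least 1145-fold and the NOD mean at least 189-fold higher, with 3 tags in each BALB library as the floor. C57 had 0, 0.583 and 1.11 TPM after IL-4 (0, 11 and 11 tags), and its change of 0.39 was not called (adjusted p = 0.0345).

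In basal cells, Chil1 and the summed neutrophil genes were both highest in PWK and next highest in SPRET, while C57 and NOD stood in opposite orders. Basal C57 held more of these genes (255 to 283 TPM) than basal NOD (174 to 195 TPM), with a mean of 0.147 TPM of Chil1 against 45.6 TPM. In the basal PWK libraries Lcn2 stood at 832 to 844 TPM, S100a8 at 341 to 351 and S100a9 at 187 to 190. Camp was between 11.2 and 12.3 TPM, Ly6g was near 0, and a list of stromal genes summed to 202 to 210 TPM against at most 16.7 in the other strains. SPRET shared the high S100a8 (334 to 394 TPM) with S100a9 at 0.75 TPM or less. The part of other cells in the level of Chil1 was not tested.

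Chil4 was detected in the basal cells of each strain except BALB by at most 4 tags a library. In C57 it was 0.059, 0 and 0 TPM and rose to 3.32, 3.62 and 2.26 TPM with IL-4, from 1 tag in 3 libraries to 74, 61 and 20 tags (1.98, standard error 0.12, adjusted p = 5.46e-13 from limma). These 3 IL-4 libraries were the only ones of the 29 at 1 TPM or more. Chil4 thus passed the filter only through the group in which it was called, so its tests against this group were not independent of the filter. In the IL-4 libraries of the other 4 strains it lay between 0 and 0.368 TPM, and C57 was above each of them, by 1.69 to 1.87 on the log2 scale. Chil3 was also higher in C57, and the Chil4 values were 0.136% to 0.195% of the Chil3 value of the same library in the IL-4 libraries of C57. In the BALB IL-4 libraries, with 5 to 7 tags of Chil4 each, they were 0.153%, 0.120% and 0.122%. In those of NOD, PWK and SPRET, where Chil3 was far lower, they ran from 0% to 72.9%. How many Chil4 reads came from Chil3 was not tested.

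Retnla was low in C57 and did not pass the test there, with 2.97, 3.94 and 4.91 TPM in basal cells and 5.10, 3.90 and 4.01 TPM after IL-4 (0.12, adjusted p = 0.529, limma). BALB had 1.28, 1.92 and 2.01 TPM and then 0.989, 1.15 and 1.36 TPM (-0.33, adjusted p = 0.0691). NOD and PWK had 0 tags in all 11 libraries, and basal SPRET had 0 in all 3. Basal C57 was at least 7.95-fold above NOD, at least 9.36-fold above PWK and at least 11.5-fold above SPRET. After IL-4 SPRET had 0.577, 0.651 and 0.097 TPM, that is 5, 7 and 1 tags (0.50, adjusted p = 0.00415, under 2-fold on this scale).

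Counted over the 4 members tested, 2 were called higher with IL-4 in C57, where 2.28% of all genes were, 1 in BALB (1.27%) and 1 in PWK (1.54%). Of the 2 in C57, Chil4 was tested only through the C57 IL-4 libraries. Called lower was 1 member in NOD, against 0.462% of all genes, and none was called in SPRET, against 3.94% in either direction. The calls of Chil4 in C57, Chil1 in NOD and Chil3 in PWK were below 2-fold when 5 TPM in place of 1 was added before taking logs (0.68, -0.97 and 0.54), which shrinks the fold of low values by construction.

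Between basal strains, 1 member differed between BALB and C57 (4.81% of all genes called), while NOD, PWK and SPRET each differed from C57 in 3 members (16.9%, 13.3% and 18.1%) and each from BALB in 3 (18%, 15.7% and 20.3%). Among the wild-derived strains and NOD, 1 member differed between PWK and NOD (14.6%), 2 between SPRET and NOD (33%) and 1 between SPRET and PWK (22.4%). After IL-4, 3 members differed between BALB and C57 (5.39%) and all 4 tested members between C57 and NOD (13.2%), PWK (12.2%) or SPRET (20.6%). The other pairs after IL-4 differed in 3 members for NOD and BALB (11.8%), 3 for PWK and BALB (12.8%), 2 for SPRET and BALB (21.7%), 1 for PWK and NOD (14.2%), 2 for SPRET and NOD (32.6%) and 1 for SPRET and PWK (22.6%). The responses to IL-4 themselves differed from that of C57 in 1 member for BALB (1.49% of all genes), 3 for NOD (2.47%), 2 for PWK (2.26%) and 2 for SPRET (3.45%). Against BALB they differed in 2 members for NOD (1.28%), 1 for PWK (1.84%) and 1 for SPRET (3.34%). SPRET and NOD differed in 1 (3.55%), and no member passed for PWK and NOD (1.31%) or SPRET and PWK (3.11%). All these pairs share libraries, so their counts are not independent. Counts against C57 after IL-4, and of responses against C57, include Chil4, which was tested only through the C57 IL-4 libraries. In the order of Chil3 in basal cells (C57, BALB, NOD, PWK, SPRET), PWK did not differ from either neighbour by a called amount, and its place rested on single basal libraries. With all libraries PWK minus NOD was -0.64 and SPRET minus PWK -0.88. Without PWK basal replicate 1 they were 0.05 and -1.56, and without replicate 2 PWK minus NOD was -1.32. Each of these fits left a single basal PWK library, so no p-value is given.

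Genes whose group means followed those of a member most closely over the 10 groups were ranked by Pearson's r of log2(TPM + 1), as a description. They were Oser1, Atp5g2 and Clcf1 for Chil1 (r = 0.98, 0.97 and 0.97) and Gm4951, I730030J21Rik and Zfp473 for Chil3 (0.97, 0.95 and 0.95). For Chil4 they were Kcnd3, Ablim1 and Ksr2 (0.98, 0.95 and 0.95), and for Retnla Abcg3, Znf41-ps and 1600010M07Rik (0.98, 0.97 and 0.97). The points of each r are means of basal and IL-4 groups that share a strain, and the highest group mean of these genes was under 6 TPM except for Atp5g2 (101 TPM) and Oser1 (14.9 TPM).

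Among the other chitinase and resistin genes, Chid1 and Ctbs were expressed in every strain. Of the 10 genes in a list of chitinases and chitinase-like genes, 5 were tested. Chid1, a chitinase domain protein, had group means of 16.1 to 30.7 TPM and Ctbs, a lysosomal chitobiase, of 3.78 to 8.76 TPM, and neither was called after IL-4 in any of the 5 strains. The catalytic chitinases Chia1 and Chit1, and Chil5, Chil6 and Ovgp1, stayed at or below 1.01 TPM in every library of all 3 tables. The 5 tested genes were Chid1, Ctbs and the members Chil1, Chil3 and Chil4. Their median response was 0.39 in C57, which is the value of Chil1 (not called), where the median of all genes was -0.04. It was 0.03 against -0.11 in BALB, 0.23 against 0.12 in NOD, 0.22 against 0.08 for PWK and 0.15 against 0.11 for SPRET. Of the resistin family only Retnla was tested, since Retn did not exceed 0.523 TPM and Retnlb was at 0.

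Receptors and binding partners described for these proteins were measured with them. Of 8 listed genes 6 were tested, and 1 was called higher with IL-4 in each of BALB, PWK and SPRET, none in C57 or NOD and none lower. Of all genes, 1.27% were called higher in BALB, 1.54% in PWK and 2.28% in C57, and 3.94% in either direction in SPRET. Lgals3, which encodes galectin-3, rose from 3197 to 7121 TPM in BALB (1.16) and from 1425 to 4274 TPM in SPRET (1.58). Tlr4, the receptor of endotoxin, rose from 3.83 to 10.5 TPM in PWK (1.25). The list's median response ran from -0.04 (BALB) through 0.31 (NOD), 0.33 (C57) and 0.55 (SPRET) to 0.58 (PWK).

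Of 14 genes of IL-4 signalling and of factors acting after it, all tested, 5 rose in SPRET and BALB each, 3 in C57, 2 in PWK and 1 in NOD, and none fell. Of all genes, 1.27% were called higher in BALB, 2.28% in C57 and 1.54% in PWK, and 3.94% in either direction in SPRET. The share of rises in NOD is not given here. Pparg, a nuclear receptor of lipid ligands, rose in all 5 strains, from 1.31 in NOD to 2.42 in SPRET. Egr2 rose by 1.97 in C57, 1.08 in BALB, 2.01 in PWK and 4.09 in SPRET, and was not called in NOD (0.08, adjusted p = 0.50). In SPRET, therefore, Egr2, Irf4 (2.51), Pparg, Klf4 (1.33) and Cebpa (1.26) rose while Chil3 did not pass the test. The list's median ran from 0.03 (SPRET) through 0.08 (C57), 0.12 (PWK) and 0.15 (NOD) to 0.20 (BALB).

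The time course asked when the members responded in C57 and in SPRET. Chil3 and Chil4 of C57 were late, with Chil3 called from 6 hours and Chil4 at 24 hours. In SPRET, Retnla appeared at 6 hours and Chil1 declined, being called lower at 24 hours. The limits for a call were the same, with 12088 genes tested, and later times of a strain share its basal libraries.

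**Figure D2:**
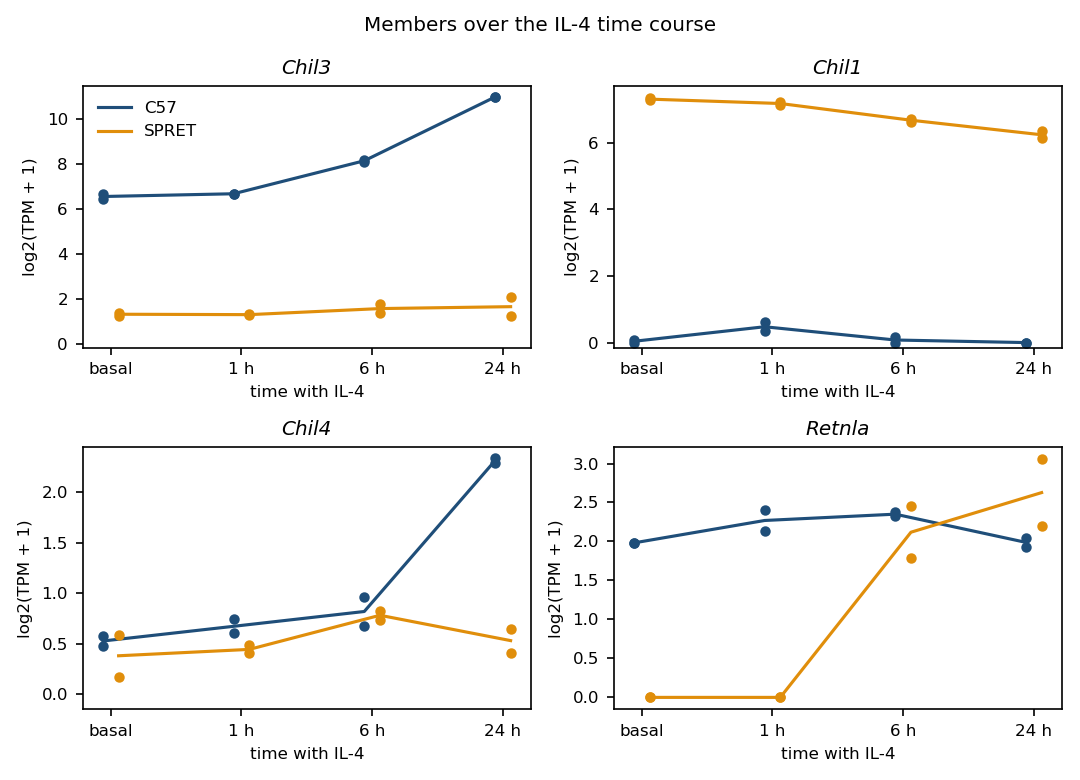
Levels of Chil3, Chil1, Chil4 and Retnla over hours of IL-4 in C57 (blue) and SPRET (orange) BMDMs, as log2(TPM + 1), with a point for each library and lines through the group means. C57 Chil3 climbs from a mean of 93.9 TPM to 2028 TPM at 24 hours, and SPRET Retnla leaves 0 between 1 and 6 hours.

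C57 Chil3 was 101 and 87.0 TPM at 0 hours, 101 and 103 at 1 hour, 276 and 292 at 6 hours and 2034 and 2022 at 24 hours. It did not pass at 1 hour (0.12, adjusted p = 0.885, limma), rose by 6 hours (1.59, standard error 0.20, adjusted p = 0.000121) and rose further from 6 to 24 hours (2.83, adjusted p = 5.31e-07), as Chil4 did. SPRET Chil3 was 1.40 and 1.64 TPM at 0 hours and 3.22 and 1.40 TPM at 24 hours, with overlapping groups (0.34, adjusted p = 0.226). The 24-hour responses differed by -4.08 (SPRET minus C57, adjusted p = 8.27e-07).

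C57 Chil4 had 0.491 and 0.389 TPM at 0 hours, 0.516 and 0.672 at 1 hour, 0.953 and 0.591 at 6 hours and 4.05 and 3.89 at 24 hours. The 24-hour rise was 1.79 (standard error 0.18, adjusted p = 5.73e-06 from limma). Only the 2 C57 libraries of 24 hours, out of 16, reached 1 TPM, so Chil4 was tested only through the group that was called. Chil4 in SPRET lay between 0.124 and 0.774 TPM at all times.

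Retnla in C57 lay between 2.81 and 4.29 TPM, with 2.95 in both basal libraries and 2.81 and 3.13 at 24 hours (0.01, adjusted p = 0.995, limma). In SPRET it was 0 in the 4 libraries of 0 and 1 hours, 4.47 and 2.45 TPM at 6 hours (24 and 5 tags), and 7.30 and 3.60 TPM at 24 hours (66 and 13 tags). The 6-hour rise was 2.12 (standard error 0.25, adjusted p = 3.39e-05) and at least 6.25-fold against a floor of 3 tags in each basal library, and the 24-hour rise was 2.63 (adjusted p = 4.01e-06) and at least 9.84-fold. The response of SPRET exceeded that of C57 by 1.75 at 6 hours (adjusted p = 0.00659) and by 2.62 at 24 hours (adjusted p = 0.000151). At 24 hours the strains did not differ by a called amount (0.64, adjusted p = 0.0405). Without 24-hour SPRET replicate 2, which leaves a single library in that group, the difference was 1.06.

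A set of 8 genes known from resident peritoneal macrophages, put together after values of the Egr2 table were seen, was also read in SPRET. In the time course 3 or 4 of the 8 genes were at 1 TPM or more there, against 2 or 3 in C57. In SPRET the set summed to 20.6 to 21.1 TPM at 0 hours, 68.3 to 74.9 at 1 hour, 36.8 to 38.7 at 6 hours and 20.8 to 22.8 at 24 hours, against 6.24 to 10.3 TPM in C57. Most of the SPRET sum was Serpinb2 (1.70 to 55.2 TPM) and F5 (10.5 to 14.0 TPM). Gata6 was at 0 and Alox15 at most 0.302 TPM in these 8 SPRET libraries. In the 5-strain table the sum went from 5.05 to 6.49 TPM in basal SPRET to 26.7 to 30.6 TPM after IL-4, and was 3.32 to 11.6 TPM in the other strains. The part of peritoneal macrophages in the SPRET Retnla was not tested.

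SPRET Chil1 went from 160.2 and 154 TPM to 149 and 138 at 1 hour, 97.6 and 105 at 6 hours and 80.2 and 68.9 at 24 hours, each group below the one before. The 6-hour change of -0.63 (adjusted p = 0.000549, limma) was under 2-fold, and the 24-hour change of -1.07 (standard error 0.11, adjusted p = 5.35e-06) was called, but was -0.96 without 24-hour replicate 2. In C57 Chil1 did not exceed 0.526 TPM.

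At 6 and 24 hours 1 and 2 members were called higher in C57 (1.56% and 2.85% of all genes), and in SPRET 1 and 1 (2.81% and 2.62%). Called lower was 1 in SPRET at 24 hours (2.99%), and at 1 hour none was called in either direction in C57 (0.703% higher, 0.174% lower) or SPRET (1.41% and 0.472%). From 6 to 24 hours 2 members rose in C57 (1.57%). SPRET differed from C57 in 3 members at 0 hours (18.8%), in 3 at 1 hour (19.5%), in 2 at 6 hours (18.6%) and in 3 at 24 hours (20.5%). Chil1 was higher in SPRET at each time, by 7.27, 6.70, 6.60 and 6.24 on the log2 scale, and Chil3 lower, by -5.23, -5.37, -6.57 and -9.32. The responses of the strains differed in 2 members at 6 hours (2.4%) and in all 4 tested members at 24 hours (6.22%). The counts that involve C57 at 24 hours include Chil4, which was tested only through those libraries.

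The same 24-hour contrast was measured in SPRET in both tables, and its values stand side by side without a test, as the tables were scaled separately. Chil1 of SPRET stayed at 124 to 127 TPM in the 5-strain libraries and went from 154 to 160.2 TPM down to 68.9 to 80.2 TPM in the time course. SPRET Retnla after 24 hours was 0.097 to 0.651 TPM in the first and 3.60 to 7.30 TPM in the second. C57 Chil3 was alike in both, with responses of 4.72 and 4.42. The summed neutrophil genes of SPRET were 250 to 406 TPM in the 5-strain libraries and 64.1 to 93.3 TPM in the time course, and the part of this difference in the values of Chil1 was not tested.

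The third table asked how the members depend on Egr2, a zinc finger factor that IL-4 itself induces. Egr2MKO held less Chil3 than Egr2WT at every time, at 24 hours 0.104 of its mean, yet Chil3 still rose with IL-4. Chil4 rose in both genotypes at 24 hours, and Retnla differed between Egr2MKO libraries of the same group. Egr2 itself was 23.6 and 21.3 TPM in basal Egr2WT against 0.859 and 0.854 TPM in basal Egr2MKO. At 24 hours it was 101 and 99.5 TPM against 4.72 and 7.05 TPM (-3.90 on the log2 scale), so the genotypes matched their labels.

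**Figure D3:**
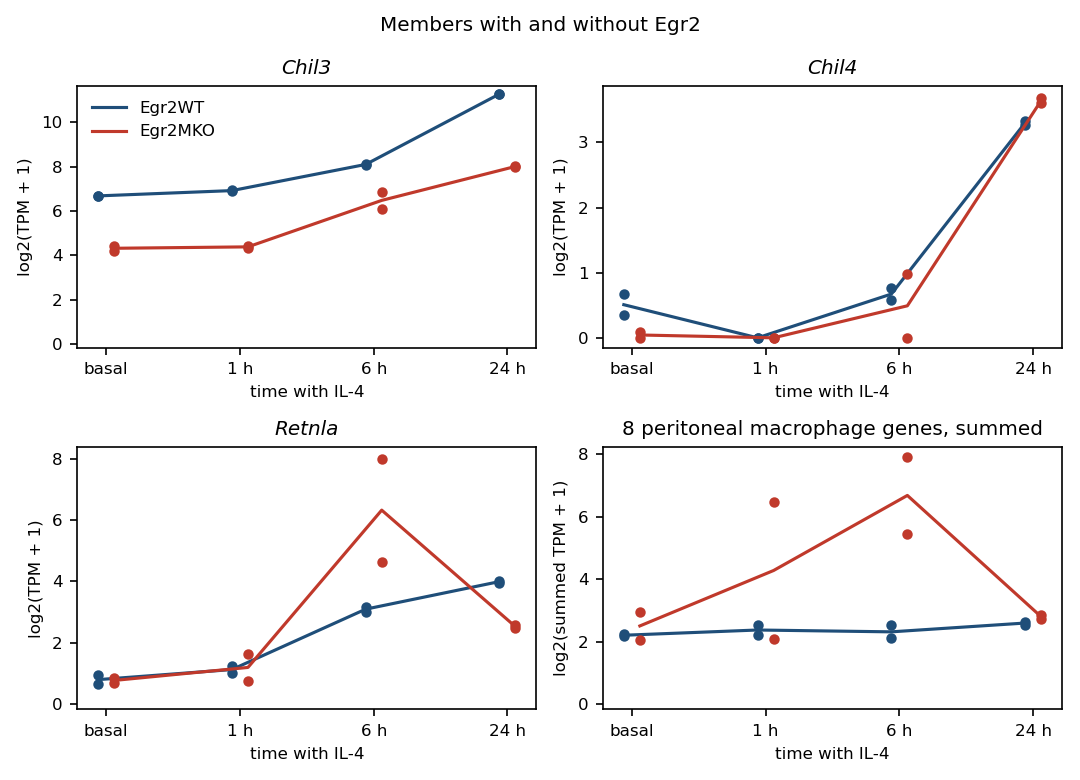
Levels of Chil3, Chil4, Retnla and the sum of 8 peritoneal macrophage genes over hours of IL-4 in Egr2WT (blue) and Egr2MKO (red) BMDMs, as log2(TPM + 1), with a point for each library and lines through the group means. The 3 Egr2MKO libraries that stand high in the summed genes, at 42.3 to 239.95 TPM, include both 6-hour libraries, where Retnla is 24.1 and 254 TPM.

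In a set of 8 peritoneal macrophage genes put together after values of these libraries were seen, 3 Egr2MKO libraries stood apart. The 8 peritoneal macrophage genes summed to 86.5 TPM in 1-hour replicate 1 and to 42.3 and 239.95 TPM in 6-hour replicates 1 and 2, against 3.17 to 6.74 TPM in the other 13 libraries of this table. Alox15, which encodes a lipoxygenase typical of those cells, was 37.6, 19.6 and 80.3 TPM in these libraries and at most 0.892 TPM in the other 13. Prg4 followed with 24.0, 7.42 and 51.4 TPM against at most 4.06. Gata6, which defines these cells, was at 0.626, 0.402 and 2.13 TPM against at most 0.658, so that only 1 of the 3 stood above the rest in this gene. No 6-hour Egr2MKO library is left without them, so Chil3 and Retnla at 6 hours are given without each of the 2 libraries in turn.

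Egr2WT held Chil3 at 101 and 103 TPM at 0 hours, 124 and 117 at 1 hour, 279.98 and 267 at 6 hours and 2485 and 2457 at 24 hours. Egr2MKO held 20.5 and 17.6, then 20.7 and 19.2, then 68.0 and 115, and at 24 hours 259 and 254 TPM. All Egr2MKO libraries of a time were below both Egr2WT libraries, and the differences were -2.36 (adjusted p = 3.26e-06), -2.53 (adjusted p = 1.56e-06), -1.62 (adjusted p = 3.63e-05) and -3.26 (adjusted p = 2.69e-08) by limma, with a standard error of 0.17 each. Without the 3 libraries the 1-hour difference was -2.59. The 6-hour difference was -1.25 without 6-hour Egr2MKO replicate 1 and -1.99 without replicate 2. Each of these models left a single Egr2MKO library at the time compared, so its spread could not be estimated and no p-value is given.

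Chil3 rose within Egr2MKO by 2.16 at 6 hours (2.53 without 6-hour replicate 1 and 1.78 without replicate 2). At 24 hours it rose by 3.69 (adjusted p = 6.40e-09, limma). Within Egr2WT the rises were 1.42 and 4.59 (adjusted p = 1.40e-09). The 24-hour responses differed by -0.90 (standard error 0.24, adjusted p = 0.0263), less than 2-fold, so no member's 24-hour response was called different (1.9% of all genes were). Without Egr2MKO basal replicate 2, which leaves a single basal library, the Chil3 difference was just past 2-fold. At 6 hours the Chil3 responses differed by 0.74 (adjusted p = 0.215). With a single 6-hour Egr2MKO library left they differed by 1.11 without replicate 1 and by 0.37 without replicate 2. The lower level in Egr2MKO was thus present before IL-4, at 0.187 of the Egr2WT mean, and at 24 hours it was 0.104 of it.

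Chil4 was 0.274 and 0.588 TPM in basal Egr2WT and 9.05 and 8.67 TPM at 24 hours (2.79, standard error 0.26, adjusted p = 5.05e-06 from limma). In Egr2MKO it was 0.062 and 0 TPM and then 11.8 and 11.1 TPM (3.60, adjusted p = 4.66e-07). The 4 libraries of 24 hours were the only ones of 16 at 1 TPM or more, so Chil4 was tested only through them. At 24 hours both Egr2MKO libraries stood above both Egr2WT libraries, but the difference of 0.34 (standard error 0.26) did not pass (adjusted p = 0.333). Chil4 was therefore 4.57% and 4.38% of the Chil3 value in the 24-hour Egr2MKO libraries and 0.364% and 0.353% in the Egr2WT ones. The lower Chil3 of Egr2MKO was thus not matched by a lower Chil4.

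Retnla was 0.922 and 0.595 TPM in basal Egr2WT, 1.36 and 1.05 at 1 hour, 7.08 and 8.10 at 6 hours and 14.6 and 15.3 at 24 hours. It rose by 2.29 at 6 hours (standard error 0.73, adjusted p = 0.0382 from limma) and by 3.19 at 24 hours (adjusted p = 0.00554). The 6-hour call had an adjusted p of 0.0507 to 0.146 when any of 12 single libraries was left out. Without the 3 Egr2MKO libraries, which widen the common spread, it was called again (adjusted p = 1.78e-06).

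In Egr2MKO, Retnla was 0.629 and 0.815 TPM at 0 hours, 2.13 and 0.70 at 1 hour, 24.1 and 254 at 6 hours and 4.60 and 4.95 at 24 hours. In each of the 3 libraries that stood apart in the peritoneal genes, Retnla exceeded both Egr2WT libraries of the same time. With all libraries the 6-hour rise was 5.54 and Egr2MKO exceeded Egr2WT at 6 hours by 3.22 (adjusted p = 0.00870, limma), but with only the groups compared in the model the adjusted p was 0.164. Without 6-hour Egr2MKO replicate 1 the rise was 7.21 and the difference 4.89, and without replicate 2 they were 3.87 and 1.55. Each of these models left a single 6-hour Egr2MKO library, so the gap between 24.1 and 254 TPM no longer counted as spread and no p-value is given. With replicate 1 left out, the library that remained was the shallowest (1.78 M tags) and held the highest sum of peritoneal genes (239.95 TPM). The part of such cells in this Retnla was not tested.

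At 24 hours, when the peritoneal genes were low in every library (5.65 to 6.30 TPM in Egr2MKO), both Egr2MKO libraries had less Retnla than both Egr2WT libraries. The difference of -1.47 was not called with all libraries in the model (adjusted p = 0.139, standard error 0.73). Without the 3 libraries it was -1.47 with a standard error of 0.14 (adjusted p = 2.80e-05), and the responses then differed by -1.44 (adjusted p = 0.00132), so the call depends on the spread of libraries of other times.

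Chil1 did not exceed 0.40 TPM in Egr2WT and was 0.545 and 3.54 TPM (5 and 7 tags) in Egr2MKO at 6 hours. Its call there (1.41, adjusted p = 0.0431) was lost in most of the other models tried.

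Over the 4 tested members, 2 rose at 6 hours and 3 at 24 hours in Egr2WT (1.99% and 2.31% of the 12079 genes tested), and 2 at each time in Egr2MKO (2.37% and 2.76%). Between genotypes, 1 was lower in Egr2MKO under basal conditions (0.48%), 1 at 1 hour (0.58%), 1 at 6 hours (1.41%) and 1 at 24 hours (2.14%), Chil3 each time. At 6 hours 2 were higher in Egr2MKO (0.894%), Retnla and Chil1. Chil1 was tested only through libraries that stood apart in the peritoneal genes, and Chil4 only through the 24-hour libraries. The genotypes are compared at each time with separate libraries, while the responses share the basal ones.

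Among the 14 genes of IL-4 signalling, 3 were lower in Egr2MKO at 24 hours (2.14% of all genes were) and 1 was higher, for which the share of all genes is not given here. Lower were Egr2, Irf4 (18.3 TPM in Egr2WT and 6.74 TPM in Egr2MKO, -1.32) and Il13ra1, a subunit of the second IL-4 receptor (8.80 and 2.73 TPM, -1.39). Higher was Il4ra, the IL-4 binding chain (28.8 and 67.6 TPM, 1.21). Stat6 was not called (0.10), against a median of all genes of 0.12.

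F1 BMDMs carry a copy of each parental genome in the same nucleus, so that the alleles of a member share their surroundings. In these tables the authors assigned expression to the parents by weighting read counts with the share of reads over strain-specific bases, so the units here, called weighted tags, are not read counts. No test was run and no interval is given. Length in the C57 and SPRET cross was the genomic span for nearly all genes, so levels are compared within the cross. Weighted tags per M stand beside parental tags per M for orientation only. The weight differs from gene to gene, so these are not on the same scale, and a gap between them is not read as a difference in level.

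**Figure D4:**
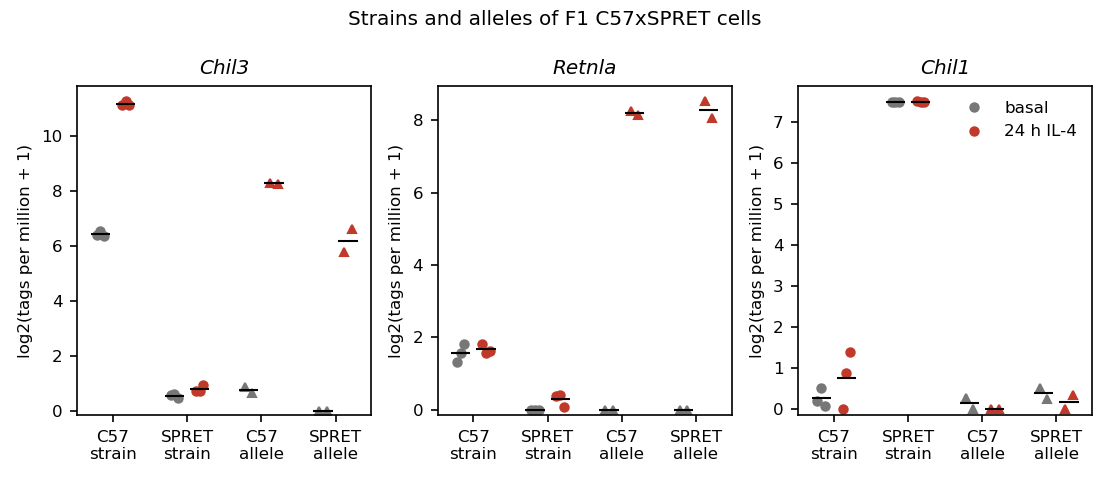
Chil3, Retnla and Chil1 in the parental C57 and SPRET strains (circles) and at the C57 and SPRET alleles of the F1 cross (triangles), as log2(tags per M + 1), basal in grey and after 24 hours of IL-4 in red, with dashes at the means. The SPRET allele of Chil3 lies at 53.0 and 96.3 per M in F1 cells after IL-4 against at most 0.918 in SPRET cells. F1 values are weighted tags, so strains and alleles are not on the same scale.

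Chil3 in the C57 and SPRET cross had 0.324 and 0.215 TPM at the C57 allele in basal cells (4 and 3 weighted tags) and was listed at 0 at the SPRET allele. After IL-4 the C57 allele had 103 and 102 TPM and the SPRET allele 17.9 and 32.2 TPM. In weighted tags per M this was 312 and 305 against 53.0 and 96.3, while the parental libraries after IL-4 held 2213 to 2412 per M in C57 and 0.637 to 0.918 in SPRET. The C57 allele was higher in both libraries, by 2.46 and 1.64 on the log2 scale. In basal cells the F1 C57 allele was listed at 0.553 to 0.829 per M, beside 81.4 to 90.6 in the C57 parent on its own scale.

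Retnla was listed at 0 at both alleles in both basal F1 libraries. With IL-4 it reached 1068 and 999.5 TPM at the C57 allele and 1300.2 and 928 TPM at the SPRET allele, and the alleles differed by -0.28 and 0.11 on the log2 scale (C57 over SPRET), in opposite directions. These values correspond to 284 to 308 per M at the C57 allele and 265 to 367 at the SPRET allele, whereas parental libraries after 24 hours held 1.97 to 2.54 in C57 and 0.0485 to 0.326 in SPRET. Within the F1 cells Retnla thus rose with IL-4 from a listed 0 at both alleles, while both parents were low in the 5-strain table. The weighting and the separate tables put F1 and parental values on unlike scales. The origin of the gap between them was not tested.

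Chil4 after IL-4 had 23 and 13 weighted tags at the C57 allele and 12 and 195 at the SPRET allele, so the direction differed between the libraries. The SPRET column of the second library was also 2.08 times as deep as its C57 column, against 0.966 to 0.973 in all other F1 libraries. Chil1, at 178 to 181 per M in SPRET cells, had 0 to 3 weighted tags at the SPRET allele (at most 0.426 per M, again on an unlike scale). Retnlg was listed with 1 weighted tag in 1 column and at 0 in the rest.

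The cross of C57 and NOD held 0.150 M to 0.351 M weighted tags a column, and Chil3, Chil4, Retnla and Retnlg were listed at 0 in all 8 columns. Chil1 had 2 weighted tags at the C57 allele of basal replicate 1 and 6 at the NOD allele of basal replicate 2. A single one was worth 2.41 to 15.6 TPM, and for Chil3 2.65 to 6.05 TPM. The C57 strain held 1667 to 1855 TPM of Chil3 after IL-4, on a scale without weights. Whether these genes hold bases that tell the alleles of C57 and NOD apart was not tested.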

How the data were processed

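RNA-seq of polyA RNA from BMDMs was analysed in 61 libraries of 3 tables and 8 libraries of F1 crosses. The authors aligned reads with STAR to the genome of each strain, shifted positions to mm10 with MMARGE and counted tags on exons with HOMER on strand-specific libraries, and deposited TPM. The same tables hold DESeq2 comparisons of the authors, with a log2 fold change, a p-value and its adjusted form, and these were not used. TPM columns summed to 602020 to 690215 over the listed genes. In the F1 tables the authors deposited TPM for each allele, made from read counts weighted by the share of reads over strain-specific bases, times 10.

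TPM were tested with limma 3.58.1 in R 4.3.3 on log2(TPM + 1), with 1 model of all groups in each table, a mean-variance trend, and genes of at least 1 TPM in at least 2 libraries. Benjamini-Hochberg adjustment ran over all genes tested, and a call needed an adjusted p under 0.05 and over 2-fold. Tags were recovered from the steps between low values times length. Among the libraries of the 3 main tables, 87.3% to 91.2% of values of up to 50 tags came within 0.1 tags of a whole number, so tags serve as description and for the floor of 3 tags, which covers counting error only. Replicates correlated across genes with a Pearson r of 0.971 or more.

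Values in the text follow the members, the 3 genes most like each in pattern, and genes called in the pathway lists. The members, gene lists and tests were chosen with earlier results of these data known. The set of peritoneal genes and the models without 3 Egr2MKO libraries or without single libraries were added after seeing values. Alternatives were pseudocounts of 0.1 and 5 TPM, no filter and a filter at a mean of 5 TPM, median-ratio scaling, quantile normalization, a robust prior, only the groups compared, a replicate block and leaving out replicates. The procedure was tested on simulated data. Promoter sequences of 32851 genes came from RefSeq (GRCm38.p6). Figures were drawn with matplotlib 3.10.9. Chromatin data and human macrophages were not analysed here.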

Additional observations from a re-analysis of the deposited data

Results flagged for a closer look

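Differences between responses to IL-4 passed the test, on the log2 scale, in the following comparisons, whose basal and C57 libraries are partly shared. In the 5 strains after 24 hours, the response of Chil3 differed from that of C57 by -3.73 (NOD), -3.57 (PWK) and -4.51 (SPRET). Its difference from the BALB response was -2.89 (NOD), -2.72 (PWK) and -3.67 (SPRET). The Chil4 response differed from that of C57 by -1.66 (BALB), -1.83 (NOD), -2.02 (PWK) and -1.83 (SPRET), but Chil4 was tested only through the C57 IL-4 libraries. For Chil1, the NOD response differed from that of C57 by -1.48 and from that of BALB by -1.02, and SPRET minus NOD was 1.11. The difference between NOD and BALB was just past 2-fold, and was -0.98 without replicate 2 and -0.99 without BALB basal replicate 2.

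In the time course, the response of SPRET minus that of C57 at 6 hours was -1.34 for Chil3 and 1.75 for Retnla. At 24 hours it was -1.03 for Chil1, -4.08 for Chil3, -1.64 for Chil4 and 2.62 for Retnla. Chil4 was tested only through the C57 libraries of 24 hours. The Chil1 value was -0.99 without C57 basal replicate 2 and -0.92 without SPRET 24-hour replicate 2, both under 2-fold.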

How the results depend on the processing

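Of the 119 calls on members, 74 were kept in every setting tried. With 5 TPM added before taking logs, 40 were lost, most of them of Chil4 and Retnla, whose low values such a constant shrinks by construction. The count of called responses to IL-4 in the 5 strains was then 2 in place of 5, that of differences between strains 32 in place of 50, and that of differences in response 8 in place of 13. A filter at a mean of 5 TPM tests fewer members and gave 16 calls in the time course in place of 27. For F1 cells, 1 combination of gene and condition, Chil3 after IL-4, had more than 2-fold between alleles in the same direction in both libraries. With 0.1 added there were 2, and with a single replicate 2 to 3. Leaving out replicates gave 4 to 6 called responses and 50 to 51 differences between strains. It gave 12 to 15 differences in response, 23 to 27 calls in the time course and 21 to 33 in the Egr2 table, against 24 with all libraries. Basal PWK minus NOD of Chil3 turned from -0.64 to 0.054 without replicate 1, and ranged from -1.32 to 0.047 without single PWK basal libraries. Where a table has 2 libraries a group, leaving out a replicate number leaves values with no test. Leaving out 1 library there leaves a single one in its group, so the counts of calls then rest on the spread of the other groups. The mean r of residuals between same-numbered libraries was 0.013 for the 5 strains, 0.030 for C57 and SPRET over time and -0.005 for the Egr2 table. Single values ran from -0.134 to 0.333, from -0.143 to 0.266 and from -0.139 to 0.057. Whether some libraries were paired cannot be told from these means. With the replicate number as a block, 2 of the 119 calls were lost. Median-ratio scaling moved the median of all genes by up to 0.33 between strains and lost 2 calls. Values under about 3 tags a library and the weighted values of the F1 cells of C57 and NOD limit what can be seen of Chil4, Retnla and Retnlg.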
